A study of Mus musculus with 16 samples.

Results

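The fibrillar collagens examined here are the 7 genes Col1a1, Col1a2, Col3a1, Col5a1, Col5a2, Col5a3 and Col11a1, of 32285 genes counted in the series. They were chosen by name, as the chains of collagen types I, III, V and XI, and not by any measured value. Single-cell RNA-Seq had been run on bone marrow stromal cell cultures of 4 genotypes, and the levels of these chains, the ratios between them and their background in macrophage-like cells were compared across stromal cell classes and genotypes. The mice were 12-week-old C57BL/6J males that all carried floxed Fgf23 alleles (Fgf23 fl/fl). WT mice were Dmp1+/+ without Cre, Fgf23cKO mice were Dmp1+/+ with Dmp1-cre, Dmp1KO mice were Dmp1-/- without Cre, and Dmp1KO/Fgf23cKO mice were Dmp1-/- with Dmp1-cre. The Cre transgene was driven by the Dmp1 promoter, which is active in mature osteoblasts and osteocytes, so only cells in which it has been active lose Fgf23. Cells were cultured for 21 days in osteogenic medium with 10 mM beta-glycerophosphate (bGP), 3 individual cultures per genotype were tagged and sorted as viable cells, and the cultures of a genotype were pooled for a droplet reaction. Since each genotype had its own reaction, genotype and reaction cannot be told apart.

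Fibrillar collagens form the rope-like fibrils of connective tissue. Their chains fold into helices in the endoplasmic reticulum, are secreted as procollagens and are trimmed outside the cell before they assemble. Col1a1 and Col1a2 encode the chains of type I collagen, the main protein of bone matrix. Col3a1 encodes the chain of type III collagen, which is abundant in skin, vessels and loose connective tissue and scarce in mineralized bone. Col5a1, Col5a2 and Col5a3 encode chains of type V collagen, which sits within type I fibrils and limits their width, and Col11a1 encodes a chain of type XI collagen, the relative of type V known from cartilage that is also made by osteoblasts. Type I collagen is produced at every step from stromal progenitor to osteoblast and rises as osteoblasts mature.

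The genes lie on 6 chromosomes of GRCm38 (GENCODE M21). Col1a1 lies on chromosome 11 from 94936224 to 94953042, Col1a2 on chromosome 6 from 4504814 to 4541544, Col5a1 on chromosome 2 from 27886425 to 28039514, Col5a3 on chromosome 9 from 20770050 to 20815067 on the minus strand, and Col11a1 on chromosome 3 from 114030540 to 114220718. Col3a1 (chromosome 1, 45311538 to 45349706, plus strand) and Col5a2 (chromosome 1, 45374321 to 45503282, minus strand) are neighbours whose 3′ ends face each other over 24615 bases.

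The bases just before the transcript start are shown for the 4 members with a RefSeq promoter whose upstream bases hold no annotated exon, since these 4 differed in which stromal cells held their transcripts. Col3a1 and Col5a3 were weighted to pre-osteoblast-like cells, Col11a1 to osteoblast/osteocyte-like cells, and Col5a1 was spread over both. The sequences are the 250 bases upstream of the RefSeq start (GRCm38.p6), written 5′ to 3′ on the strand of the gene, at chr1:45311288-45311537 (plus) for Col3a1, chr2:27886175-27886424 (plus) for Col5a1, chr9:20815068-20815317 (minus) for Col5a3 and chr3:114030290-114030539 (plus) for Col11a1. Capitals mark CCAAT (or ATTGG on the other strand), TATAAA (or TTTATA) and GGGCGG (or CCGCCC).
Col3a1: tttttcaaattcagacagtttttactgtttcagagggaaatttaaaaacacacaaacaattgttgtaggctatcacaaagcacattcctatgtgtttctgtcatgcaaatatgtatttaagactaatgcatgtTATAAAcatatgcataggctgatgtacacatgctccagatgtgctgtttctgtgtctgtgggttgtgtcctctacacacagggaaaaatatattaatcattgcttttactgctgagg
Col5a1: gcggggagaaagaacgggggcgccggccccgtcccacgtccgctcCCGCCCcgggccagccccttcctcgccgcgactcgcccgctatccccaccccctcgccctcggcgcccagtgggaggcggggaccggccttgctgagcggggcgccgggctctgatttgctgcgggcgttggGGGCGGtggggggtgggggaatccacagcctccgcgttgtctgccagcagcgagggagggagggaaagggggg
Col5a3: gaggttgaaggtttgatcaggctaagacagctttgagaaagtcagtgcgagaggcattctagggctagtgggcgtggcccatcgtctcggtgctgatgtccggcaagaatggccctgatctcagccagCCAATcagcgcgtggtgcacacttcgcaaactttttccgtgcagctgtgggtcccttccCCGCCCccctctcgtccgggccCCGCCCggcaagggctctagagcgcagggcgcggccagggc
Col11a1: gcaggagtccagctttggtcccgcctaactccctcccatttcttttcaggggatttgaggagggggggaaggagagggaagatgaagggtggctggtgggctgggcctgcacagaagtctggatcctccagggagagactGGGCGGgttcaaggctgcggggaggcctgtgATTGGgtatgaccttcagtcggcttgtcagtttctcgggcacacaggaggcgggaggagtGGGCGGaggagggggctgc
Of the 7 members, 5 were matched to a RefSeq promoter by symbol, and Col1a1 and Col5a2 were not. The upstream bases of Col1a2 overlap an exon in GENCODE M21 and are not shown. GGGCGG was found in 4 of these 5 members, all except Col3a1, against 32.7% of 32851 promoters of the same length. CCAAT was found in Col1a2, Col5a3 and Col11a1, at 109, 122 and 79 bases before the start, against 33.8% of promoters. TATAAA was found only in Col3a1, 117 bases before the start, against 12.4% of promoters. No matches overlapped. A match describes the letters and not a site in use.

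The matrices of 15 of 16 samples were analysed, with 17793 cells. Samples numbered 1 to 3 are the tagged cultures and sample 4 is the untagged rest of the same pool, so the latter was not counted as a replicate. The matrix of Dmp1KO culture 1 was not analysed here, which left n = 2 for Dmp1KO and n = 3 for the other genotypes. Total UMIs (unique molecular identifiers, each a counted transcript) ranged from 9518928 to 72482185 per tagged culture, and the median cell held 7137 to 34988 UMIs. Depth differed by genotype. The median cell held 7137 to 7275.5 UMIs in WT, 20016 and 22186 in Dmp1KO, 29752 to 34988 in Fgf23cKO and 32378 to 33881 in Dmp1KO/Fgf23cKO. Each comparison with WT therefore also set shallower against deeper cells. Of 17758 barcodes, 35 occurred in more than 1 sample and 0 within a genotype. Dmp1 had 0 and 3 UMIs in the Dmp1KO cultures, 26 to 76 in Dmp1KO/Fgf23cKO, 152 to 1177 in Fgf23cKO and 442 to 1770 in WT. Fgf23 had 0 to 8 UMIs in every sample, too few to check its deletion.

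Levels are given as CPM, a gene's UMIs per 1000000 UMIs of the summed cells. They count 3′ ends and do not scale with transcript length, so chains were compared on this scale directly, although capture may differ between transcripts. Cells were clustered on 3000 variable genes, and 5 groups are described. A cluster led by Lingo2 (128 cells, 108 of them untagged) held at most 5 cells in any tagged culture and was left out of the stromal classes. The contractile osteoprogenitor-like cells ("contractile" in the plots, 704 cells, led by Grem1, Mgp, Tagln and Tpm2) were shallow, with a median of 2825.5 UMIs. The fibroblastic pre-osteoblast-like cells ("fibroblastic" in the plots, 425 cells, Pappa, Ebf1, Fstl1) were deep, with a median of 52112 UMIs. The osteoblast/osteocyte-like cells (535 cells, Ibsp, Bglap, Bglap2) joined a cluster of 152 deep cells and another of 383 shallow cells. A cluster led by Tenm3, Csmd1 and Apod (115 cells) was left unnamed. It held 0 cells of Dmp1KO and 2 of Dmp1KO/Fgf23cKO. The 11585 macrophage-like cells served as background. All 7 members were among the 3000 genes used for clustering, and Col1a1, Col1a2, Col3a1 and Col11a1 were among the leading genes of stromal clusters, so differences between classes are described and not tested. With the fibrillar collagens left out of the clustering, 98.1% of cells kept their class, but 141 of the 535 osteoblast/osteocyte-like cells changed theirs.

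The chains differed in their order of levels across the classes. In osteoblast/osteocyte-like and pre-osteoblast-like cells of WT the type I chains were the most abundant, whereas the Tenm3 cluster held more Col5a2 than Col1a1. Osteoprogenitor-like cells of WT cultures 2 and 3 held more Col3a1 than Col1a1, from 15 and 10 UMIs in culture 2 and 68 and 42 in culture 3. In WT, Col1a1 was at 41186, 56331 and 46845 CPM in osteoblast/osteocyte-like cells of cultures 1 to 3, and at 3819.9, 7435 and 10545 in pre-osteoblast-like cells. It was at 1366, 158 and 356 in osteoprogenitor-like cells, at 570.2 and 1175 in the Tenm3 cluster of cultures 2 and 3, and at 53.5, 53.2 and 57.9 in macrophage-like cells. The osteoblast/osteocyte-like values lay above all others without overlap, pre-osteoblast-like values came next, and the Tenm3 cluster and the osteoprogenitor-like cells overlapped. Col1a2 took the same order, with a mean of 39890.0 ± 4302 CPM (SD, n = 3) in osteoblast/osteocyte-like cells, 7319.7 ± 2221 in pre-osteoblast-like cells and 763 ± 509.7 in osteoprogenitor-like cells. The Tenm3 cluster (1373 and 2445) lay above every osteoprogenitor-like value of WT for this chain.

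Col3a1 was highest in pre-osteoblast-like cells. In WT it was at 1890.5, 2389 and 2321 CPM in pre-osteoblast-like cells, at 259, 238 and 576 in osteoprogenitor-like cells and at 280.4, 181 and 103 in osteoblast/osteocyte-like cells. This held in every culture, and the other two classes overlapped. Col5a3, the least abundant member, was likewise highest there. It was at 26.4, 92.1 and 31.5 CPM in pre-osteoblast-like cells, and at 0 to 10.3 in osteoprogenitor-like, 0 to 4.22 in Tenm3 and 0 to 2.59 in osteoblast/osteocyte-like cells of WT, values that cannot be ordered at these counts.

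Col11a1 was highest in osteoblast/osteocyte-like cells. Its WT levels were 1432, 2248 and 2000.4 CPM in osteoblast/osteocyte-like cells, 110.0, 278 and 378 in pre-osteoblast-like cells, 22.3 to 54.9 in the Tenm3 cluster and 0 to 20.7 in osteoprogenitor-like cells. The values did not overlap between classes. Those of osteoprogenitor-like cells rested on 2, 0 and 2 UMIs, so this class and the Tenm3 cluster cannot be ordered. Col5a1 differed less. It was at 688, 771 and 830.2 CPM in osteoblast/osteocyte-like cells and at 408, 581 and 630.1 in pre-osteoblast-like cells, with no overlap, and the Tenm3 cluster (88.7 and 123) overlapped the osteoprogenitor-like cells (31.7 to 114). Col5a2 was highest in osteoblast/osteocyte-like cells, at 2453, 2212 and 2260.4 CPM, and the Tenm3 cluster came next, at 1048 and 1821, overlapping the pre-osteoblast-like cells, at 895, 1148 and 992. Osteoprogenitor-like cells held 95.1 to 364. Col5a2 was thus the member for which the Tenm3 cluster lay closest to the bone-forming classes.

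**Figure D1:**
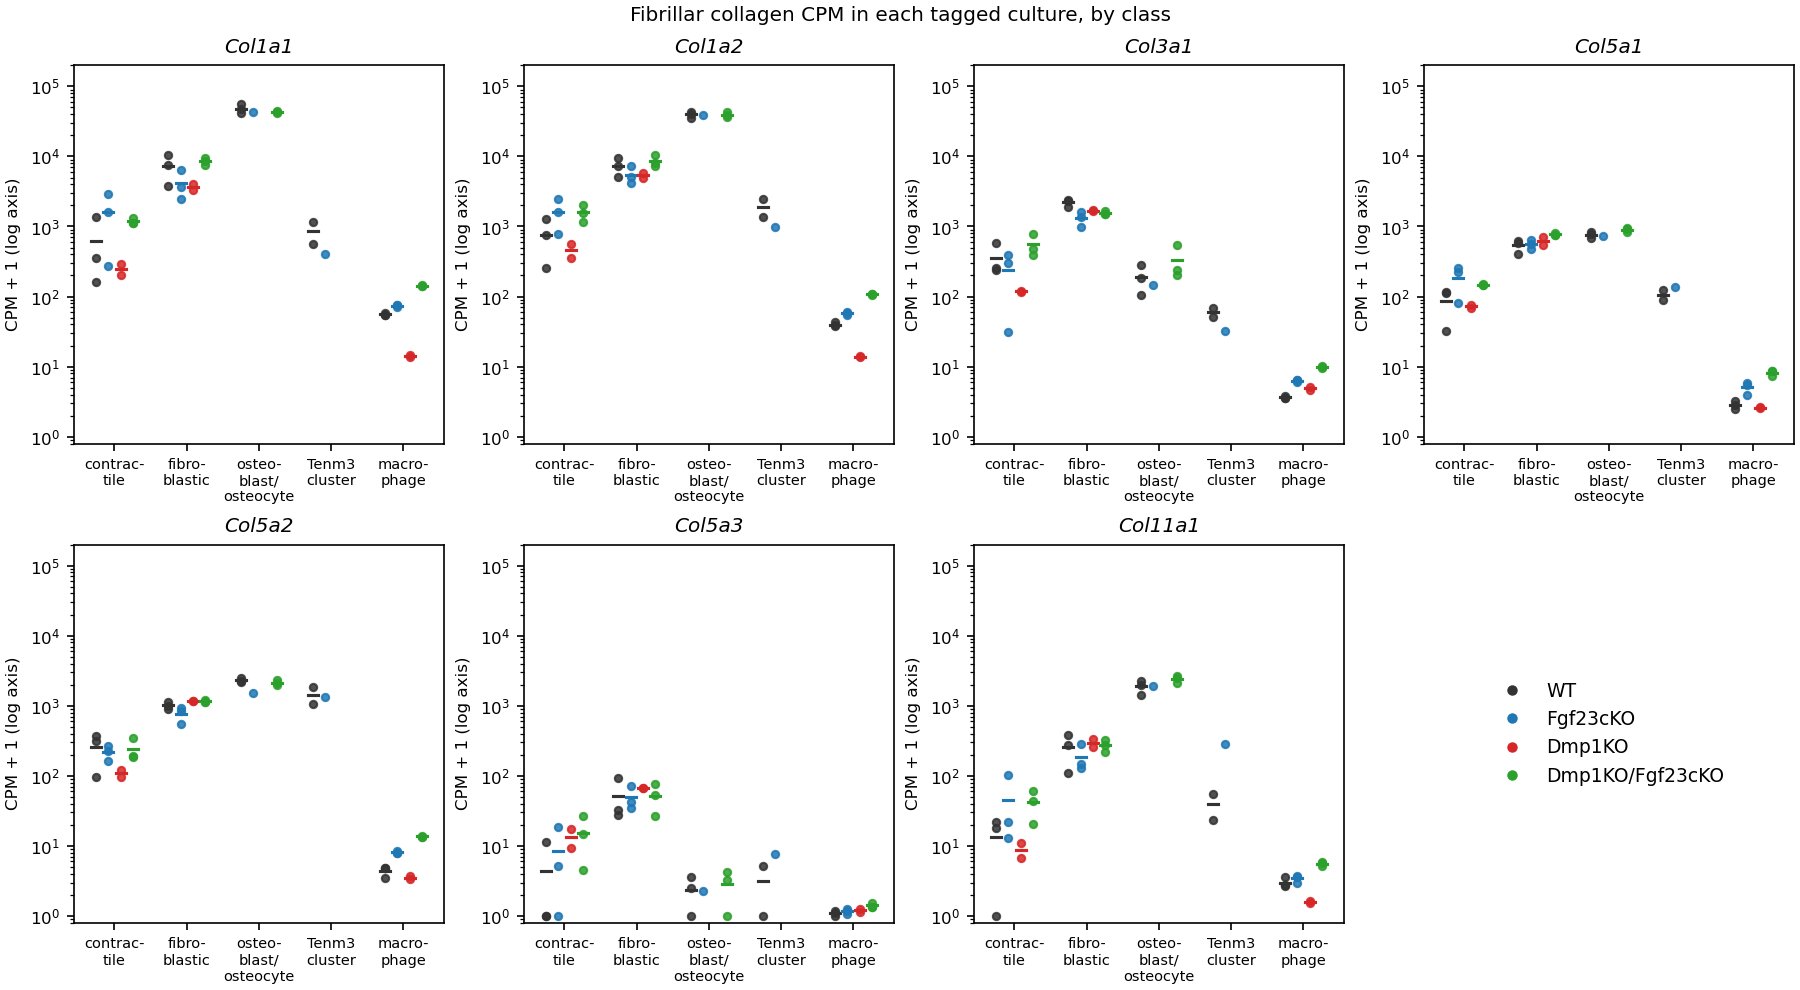
Each panel plots 1 gene, with CPM plus 1 on a log axis against cell class, a point for each tagged culture with at least 10 cells of the class, colour for genotype and a short line for the genotype mean. Col1a1, Col1a2, Col5a2 and Col11a1 are highest in osteoblast/osteocyte-like cells, Col3a1 and Col5a3 in pre-osteoblast-like cells, and every gene is lowest in macrophage-like cells or near it.

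These orders were also seen at equal depth, over cells of all samples, untagged ones included. After each cell was thinned to 1300 UMIs, 98.0% of 306 osteoblast/osteocyte-like cells held a Col1a1 UMI (exact 95% interval 95.8 to 99.3%), 82.1% of 425 pre-osteoblast-like cells, 32.4% of 540 osteoprogenitor-like cells and 6.77% of 11576 macrophage-like cells. Without thinning these shares were 98.5, 100, 51.3 and 46.3%, at median depths of 1862, 52112, 2825.5 and 18603 UMIs. Thinned shares for Col3a1 were 70.8% (66.2 to 75.1%) in pre-osteoblast-like cells against 10.8% (7.54 to 14.8%) in osteoblast/osteocyte-like and 16.5% in osteoprogenitor-like cells, with 0.700% in macrophage-like cells. For Col11a1 they were 69.9% (64.5 to 75.021%) in osteoblast/osteocyte-like cells against 21.6% in pre-osteoblast-like and 1.67% in osteoprogenitor-like cells. Col5a3 was found in 6.59% of thinned pre-osteoblast-like cells and in 1 of 306 osteoblast/osteocyte-like cells. Thinning left out 229 shallow osteoblast/osteocyte-like and 164 osteoprogenitor-like cells, and the intervals cover counting error only.

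Single cells of a class differed widely in their type I collagen. Col1a1 and Col1a2 together took a median of 8.31% of the UMIs of the 152 deep osteoblast/osteocyte-like cells, with the 5th and 95th percentiles at 2.67 and 14.1%. In the 383 shallow cells of the same class the median was 2.50%, from 0.251 to 19.4%. Of these shallow cells 291 were untagged, and their median was 5.75% in WT, 2.33% in Fgf23cKO, 1.84% in Dmp1KO and 1.02% in Dmp1KO/Fgf23cKO, against 8.95, 5.85 and 8.55% in the deep cells of WT, Fgf23cKO and Dmp1KO/Fgf23cKO. The median was 0.653% in pre-osteoblast-like cells, 0.168% in the Tenm3 cluster, 0.0446% in osteoprogenitor-like cells and 0.00499% in macrophage-like cells. The deep osteoblast/osteocyte-like cells carried the higher share in WT, Fgf23cKO and Dmp1KO/Fgf23cKO. The shallow cells of Dmp1KO/Fgf23cKO had a median of 892 UMIs. Macrophage-like cells of that genotype had a median of 35254 UMIs and a type I share of 0.0244%. At these medians the type I UMIs per cell were alike in number, and the part of free RNA in the shallow cells was not tested.

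The ratio of the type I chains was higher in osteoblast/osteocyte-like cells than in the other stromal classes. Ratios were taken of summed UMIs in each culture, and means over cultures are geometric. In WT, Col1a1 per Col1a2 was 0.415 and 0.481 in the Tenm3 cluster, averaged 0.679 (0.467 to 1.07, n = 3) in osteoprogenitor-like cells, 0.944 (0.752 to 1.11) in pre-osteoblast-like cells and 1.2011 (1.15 to 1.29) in osteoblast/osteocyte-like cells. The osteoblast/osteocyte-like values did not overlap the other classes, and those of osteoprogenitor-like and pre-osteoblast-like cells overlapped. Over all 11 tagged cultures the same order held for the means, at 0.690 in osteoprogenitor-like, 0.841 in pre-osteoblast-like and, over 7 cultures, 1.14 in osteoblast/osteocyte-like cells. Depth moved with this ratio within the class: among cells with at least 50 UMIs of the type I chains, the median was 1.09 in 152 deep and 1.61 in 158 shallow osteoblast/osteocyte-like cells, and it was higher in shallow cells of WT, Fgf23cKO and Dmp1KO/Fgf23cKO alike. The part of depth in the order of classes was not tested.

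Type III to type I separated the classes by the widest margin. Col3a1 per Col1a1 in WT was 0.00364 (0.00220 to 0.00681) in osteoblast/osteocyte-like cells, 0.0569 and 0.0889 in the Tenm3 cluster, 0.327 (0.220 to 0.495) in pre-osteoblast-like cells and 0.772 (0.189 to 1.62) in osteoprogenitor-like cells, which overlapped pre-osteoblast-like cells. The minor fibrillar chains together (Col5a1, Col5a2, Col5a3 and Col11a1) per type I and III chains were lowest in osteoblast/osteocyte-like cells, at 0.0566 (0.0523 to 0.0596), and amounted to 0.114 (0.0908 to 0.133) in pre-osteoblast-like, 0.207 (0.157 to 0.290) in osteoprogenitor-like cells and 0.533 and 0.600 in the Tenm3 cluster. No 2 of these classes overlapped in WT.

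Within types V and XI, the ratios of the chains also differed between classes. Col11a1 per Col5a1 in WT was 2.45 (2.08 to 2.92) in osteoblast/osteocyte-like cells and 0.426 (0.270 to 0.600) in pre-osteoblast-like cells. It was 0.154 and 0.182, from 2 Col11a1 UMIs each, in osteoprogenitor-like cells of the 2 cultures with UMIs of both. Osteoblast/osteocyte-like cells therefore held more Col11a1 than Col5a1 in all 7 cultures measured (2.08 to 2.92), and pre-osteoblast-like cells held less in all 11 (0.262 to 0.600). Col5a1 per Col5a2 was 0.330 (0.280 to 0.367) in osteoblast/osteocyte-like and 0.527 (0.456 to 0.635) in pre-osteoblast-like cells of WT, and 0.0673 to 0.104 in the 3 cultures of the Tenm3 cluster. Col5a3 per Col5a1 was 0.0801 (0.05 to 0.158) in pre-osteoblast-like cells and 0.00184 and 0.00336 in osteoblast/osteocyte-like cells of WT. The Tenm3 cluster of Fgf23cKO culture 3 stood apart, with 2.06 Col11a1 per Col5a1 against 0.182 and 0.619 in the WT cultures, and 282 CPM of Col11a1 against 22.3 and 54.9.

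**Figure D2:**
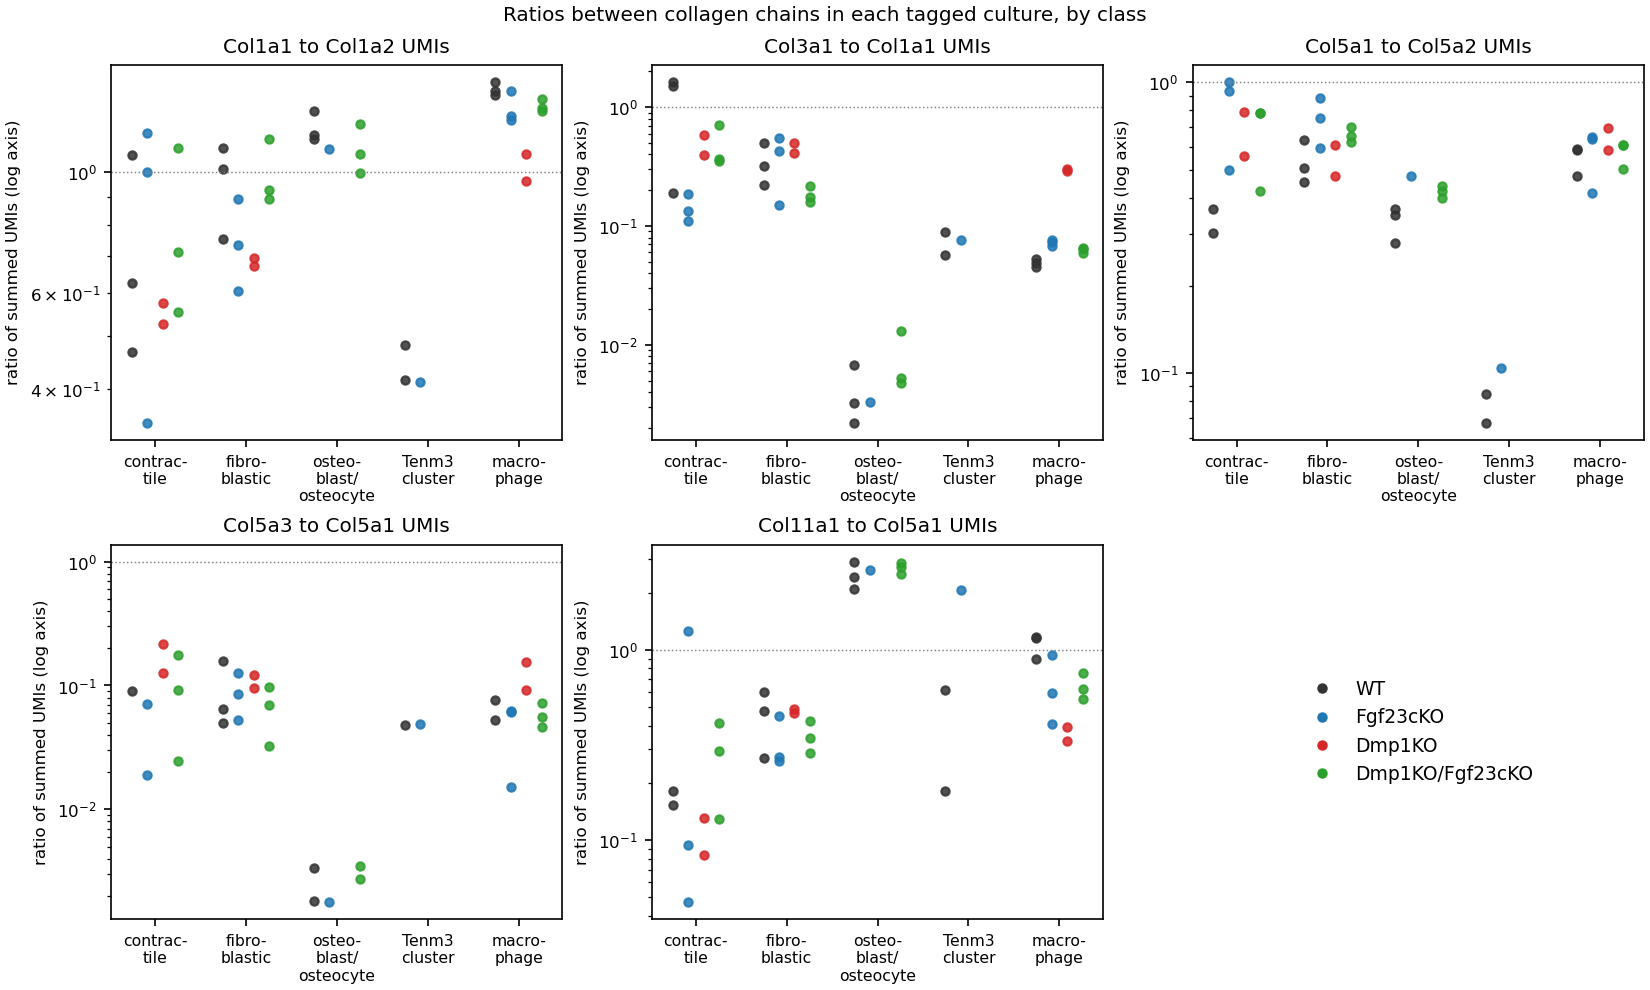
Each panel plots 1 ratio of summed UMIs on a log axis against cell class, with a point for each tagged culture with UMIs of both chains, colour for genotype and a dotted line at equal UMIs. Col3a1 per Col1a1 is lowest in osteoblast/osteocyte-like cells (0.00220 to 0.0131 over 7 cultures), where Col11a1 per Col5a1 is highest (2.08 to 2.92).

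Since the classes differ in size and depth, the source of a culture's transcripts was counted as well. In WT, osteoblast/osteocyte-like cells held 83.1 to 88.0% of all Col1a1 UMIs of a culture and 83.6 to 89.2% of Col11a1, although they held 2.39 to 7.99% of all UMIs. Pre-osteoblast-like cells held 80.3 to 89.0% of Col3a1 and 79.2 to 88.2% of Col5a3. Col5a1 was divided between them, with 48.5 to 61.6% in osteoblast/osteocyte-like and 33.9 to 43.2% in pre-osteoblast-like cells. Col5a2 had 50.4 to 68.2% in osteoblast/osteocyte-like cells, 21.7 to 30.9% in pre-osteoblast-like cells and 5.34 to 14.6% in the Tenm3 cluster. Osteoprogenitor-like cells held at most 4.17% of any member in WT.

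In Dmp1KO the pre-osteoblast-like cells were the larger source of the type V and XI chains, and of Col1a1 in 1 of the 2 cultures. In cultures 2 and 3 they held 66.1 and 43.6% of Col1a1 UMIs, 77.2 and 56.7% of Col11a1, 79.7 and 80.4% of Col5a1 and 85.7 and 77.2% of Col5a2. Osteoblast/osteocyte-like cells held 24.2% of Col1a1 in culture 2, from 2 cells with 0.142% of all UMIs. In culture 3 they held 51.5%, from 8 cells with 0.455% of all UMIs. In Dmp1KO/Fgf23cKO they held 61.6 to 82.3% of Col1a1 and 70.9 to 90.3% of Col11a1, from 3.80 to 9.89% of all UMIs. In Fgf23cKO culture 3, in which osteoblast/osteocyte-like cells held 0.882% of UMIs, the Tenm3 cluster held 41.5% of Col5a2 and 22.9% of Col11a1. Col3a1 and Col5a3 had the same main source in all 11 tagged cultures, with 80.3 to 92.9% and 79.2 to 93.9% in pre-osteoblast-like cells.

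**Figure D3:**
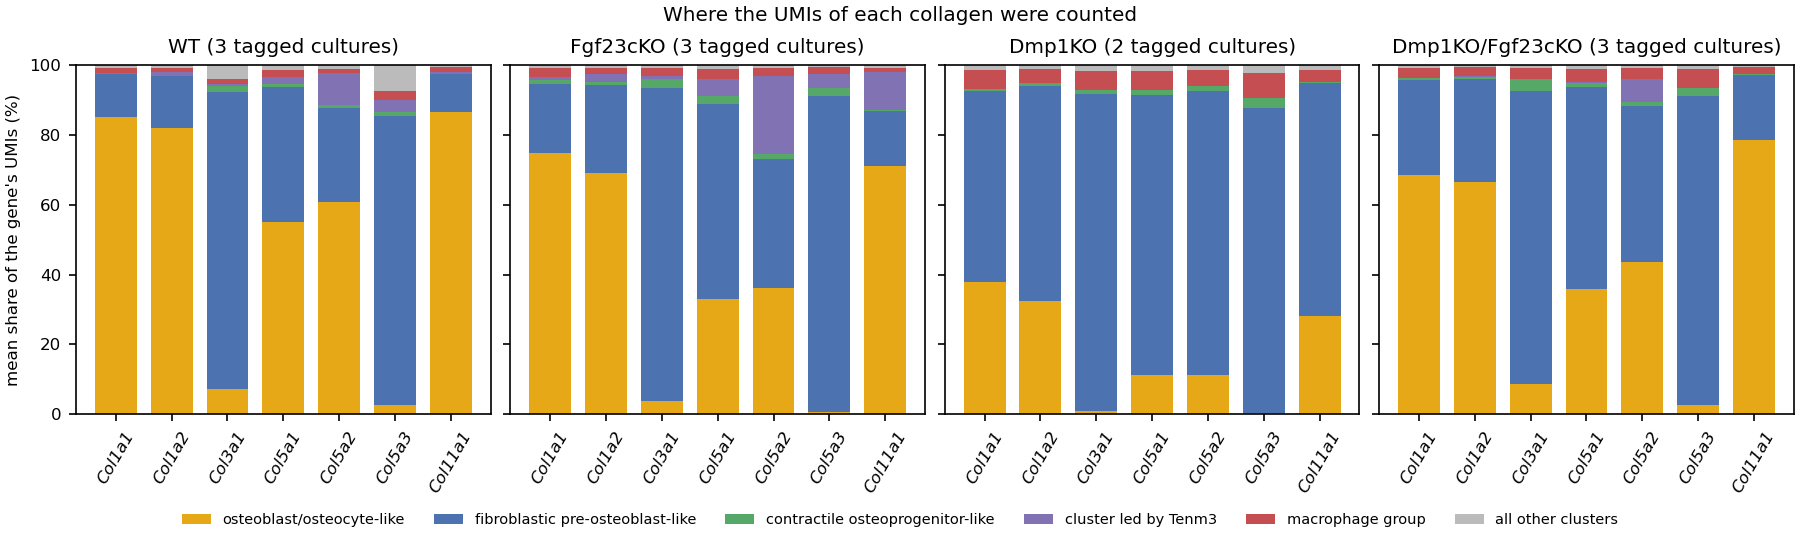
Stacked bars show, for each genotype and gene, the mean share (%) of the gene's UMIs found in each cell class over tagged cultures (n = 3, or 2 for Dmp1KO). Col3a1 and Col5a3 come mainly from pre-osteoblast-like cells in every genotype, and the osteoblast/osteocyte-like share of Col1a1 falls from a mean of 85.2% in WT to 37.9% in Dmp1KO.

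Macrophage-like cells carried the chains at low levels that were alike in cultures of a genotype, with Col5a3 at 0 to 14 UMIs per tagged culture. Their Col1a1 was at 53.5, 53.2 and 57.9 CPM in WT, at 75.025, 73.992 and 71.003 in Fgf23cKO, at 13.6 and 12.5 in Dmp1KO and at 143, 142 and 140.0 in Dmp1KO/Fgf23cKO. Genotypes did not overlap, and the level did not vary within a genotype as the whole cultures did, for example 4312, 2276 and 1013 CPM in Fgf23cKO. Relative to all cells of their pool, the 7 members stood at 1.37 to 2.62% in WT, 2.03 to 4.12% in Fgf23cKO, 3.54 to 6.22% in Dmp1KO and 2.35 to 6.40% in Dmp1KO/Fgf23cKO. Col3a1 per Col1a1 in macrophage-like cells averaged 0.0486 in WT, 0.0725 in Fgf23cKO, 0.296 in Dmp1KO and 0.0630 in Dmp1KO/Fgf23cKO, beside 0.0462, 0.0681, 0.268 and 0.0560 in the whole cultures of these genotypes. The macrophage-like ratio was therefore near that of the whole culture and far from that of osteoblast/osteocyte-like cells. Col1a1 per Col1a2 was higher in macrophage-like cells than in the whole culture, at 1.42 against 1.16 in WT and 1.02 against 0.776 in Dmp1KO.

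Stromal levels were then set over the macrophage-like level of the same culture. Osteoblast/osteocyte-like Col1a1 was 301 to 1059.5 times as high, pre-osteoblast-like Col1a1 33.8 to 301 times and osteoprogenitor-like Col1a1 2.98 to 39.3 times, so the last class lay nearest to background. Osteoprogenitor-like Col3a1 was 5.93 to 221 times and Col5a1 18.1 to 86.2 times as high. Osteoprogenitor-like Col11a1 reached 38.2 times the background but was at 0 in 1 WT culture. Subtraction of the macrophage-like level from both chains changed none of the 30 ratios and ratio differences compared by more than the spread between cultures. The level was subtracted per UMI, although osteoprogenitor-like cells were shallower than macrophage-like cells (medians of 2825.5 and 18603 UMIs). A background equal per cell would thus be removed only in part from shallow cells, and was not tested. Col1a1 had 10 UMIs in 22 osteoprogenitor-like and 617 in 1474 macrophage-like cells of WT culture 2. In Dmp1KO/Fgf23cKO culture 1 it had 391 in 35 and 3622 in 688.

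**Figure D4:**
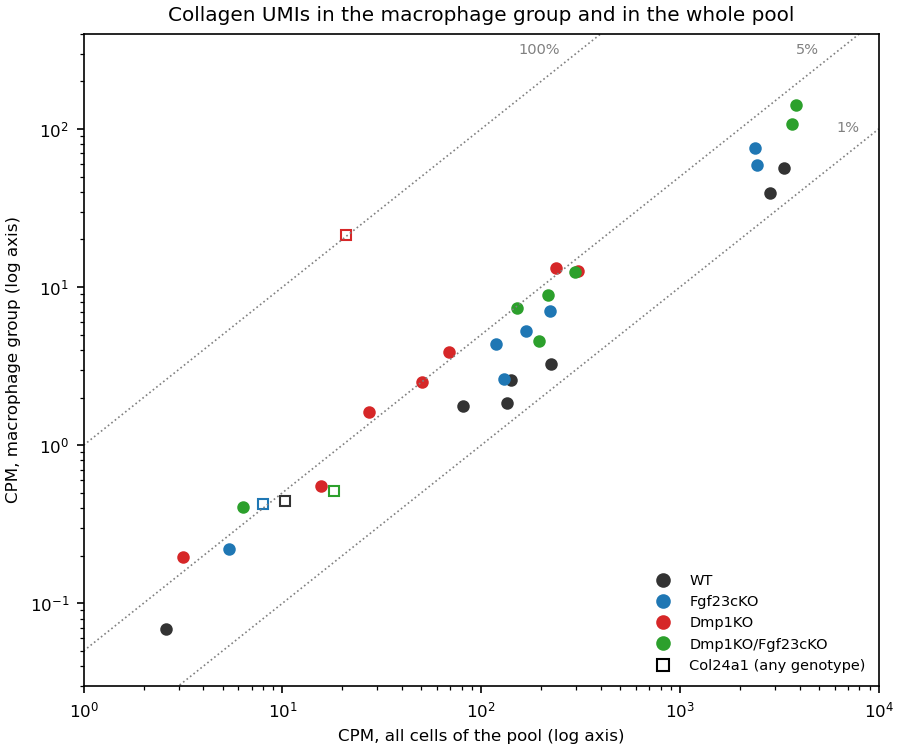
CPM in macrophage-like cells are plotted against those of all cells of the same pool, on log axes, with a point for each member and genotype, squares for Col24a1 and lines at 1, 5 and 100% of the pool. The members lie between 1.37 and 6.40% of their pool, while Col24a1 of Dmp1KO lies at 102%.

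The genotypes were compared first over all cells of a culture, which mixes the level per cell with the number and RNA content of each class, so that fewer cells of a type and less RNA per cell cannot be told apart. All comparisons below used edgeR's quasi-likelihood test on UMI sums per tagged culture, with TMM factors and Benjamini-Hochberg adjustment over all genes tested, and called a gene at an adjusted p under 0.1. The comparisons share cultures: Dmp1KO, Fgf23cKO and Dmp1KO/Fgf23cKO were each compared with the same WT cultures, and Dmp1KO/Fgf23cKO also with Dmp1KO. Differences are log2 ratios with their standard errors (SE). Where cultures are said not to overlap, this describes the values, and the share of all genes apart in the same way is not given.

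Dmp1KO cultures held less of 6 of the 7 chains than WT, and Dmp1KO/Fgf23cKO cultures did not. Col1a1 was at 2980.0, 1619 and 4429.6 CPM in WT, 146 and 289 in Dmp1KO, 4312, 2276 and 1013 in Fgf23cKO and 2759.8, 5130.4 and 3009 in Dmp1KO/Fgf23cKO. Both Dmp1KO cultures lay below all others, and the other genotypes overlapped. The log2 ratio of Dmp1KO to WT was -3.50 (SE 0.66, adjusted p = 0.00117) for Col1a1, -2.95 (SE 0.64, adjusted p = 0.00265) for Col1a2 and -2.80 (SE 0.59, adjusted p = 0.00222) for Col11a1. Col5a2 fell by 1.92 (SE 0.39, adjusted p = 0.00177), Col5a1 by 1.39 (SE 0.41, adjusted p = 0.0146) and Col3a1 by 0.94 (SE 0.26, adjusted p = 0.00971) on the log2 scale, each with Dmp1KO cultures below WT without overlap. Of all 15502 genes tested, 32% were called lower. The median log2 ratio was -1.92 over the 7 members and -0.03 over all genes. Col5a3 was not called, at 1.86 and 2.75 CPM in Dmp1KO against 2.52, 3.21 and 2.07 in WT. Its log2 ratio was 0.12 (SE 0.32) and turned to -0.18 when no scaling factors were used.

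The cell content of the cultures moved with these values. Osteoblast/osteocyte-like cells held 6.37, 2.39 and 7.99% of UMIs in WT and 0.142 and 0.455% in Dmp1KO, and pre-osteoblast-like cells 7.55, 2.82 and 5.80% against 2.35 and 3.78%. Their part in the result was not tested beyond the comparisons within classes given further on. Scaling also mattered: with library sizes alone the median of all genes shifted by -0.30 in this comparison, and the calls changed from 5037 higher and 4959 lower to 2944 and 8031. The 6 members were called under both scalings. Without Dmp1KO culture 2, Col3a1 (-0.64) and Col5a1 (-1.22) were no longer called.

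Fgf23cKO compared with WT changed 1 member. Col5a3 rose from 2.52, 3.21 and 2.07 to 5.22, 4.53 and 5.86 CPM, without overlap (log2 ratio 0.95, SE 0.29, adjusted p = 0.0283), while 21.7% of all genes were called higher. The other 6 members overlapped between the genotypes, with log2 ratios from -0.29 for Col1a1 to 0.47 for Col5a1. Culture 3 of Fgf23cKO was the lowest of the genotype for these 6 members and held the fewest osteoblast/osteocyte-like UMIs (0.882%, against 6.31 and 7.75%). Without WT culture 3 the Col5a3 call was lost, at 0.80. Pre-osteoblast-like cells, the main source of Col5a3, held 13.4, 10.4 and 7.64% of UMIs in Fgf23cKO against 7.55, 2.82 and 5.80% in WT. Their part in the rise was not tested.

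Dmp1KO/Fgf23cKO compared with WT raised 3 members, where 24.5% of all genes were called higher. Col5a3 was at 7.75, 6.18 and 3.56 CPM (log2 ratio 1.11, SE 0.29, adjusted p = 0.0108), Col5a1 at 118, 177 and 142 against 79.3, 38.0 and 108 in WT (0.90, SE 0.35, adjusted p = 0.0622), and Col3a1 at 166, 204 and 222 against 165, 84.0 and 151 (0.51, SE 0.22, adjusted p = 0.0912). All 3 lay above WT without overlap, but for Col3a1 the lowest Dmp1KO/Fgf23cKO culture and the highest WT culture were nearly equal. The log2 ratios of the type I chains were 0.21 (SE 0.51) for Col1a1 and 0.34 (SE 0.50) for Col1a2. The calls of Col3a1 and Col5a1 rested on single cultures: without WT culture 2, which was lowest for both, they stood at 0.27 and 0.58 and were lost, as they were without Dmp1KO/Fgf23cKO culture 2 (0.48 and 0.73) or culture 3 (0.42 and 0.92). Col3a1 was also lost without Fgf23cKO culture 1 or 2 (both 0.51), and Col5a1 without WT culture 1 (0.92).

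Dmp1KO/Fgf23cKO compared with Dmp1KO raised all 7 members, and all lay above Dmp1KO without overlap. In this comparison 27.2% of all genes were called higher. Log2 ratios were 3.71 (SE 0.67, adjusted p = 0.000973) for Col1a1, 3.29 (SE 0.65) for Col1a2, 3.37 (SE 0.60) for Col11a1, 2.33 (SE 0.39) for Col5a2, 2.29 (SE 0.42) for Col5a1, 1.45 (SE 0.26) for Col3a1 and 0.99 (SE 0.30, adjusted p = 0.0171) for Col5a3. The median of the members was 2.33 beside -0.05 for all genes. Osteoblast/osteocyte-like cells held 3.80, 9.89 and 4.40% of UMIs in Dmp1KO/Fgf23cKO, and pre-osteoblast-like cells 9.60, 10.2 and 11.9%. With library sizes alone the median of all genes shifted by 0.36, and the calls changed from 4217 higher and 5496 lower to 8041 and 2478, with all 7 members still higher. Without Dmp1KO culture 2, Col5a3 was no longer called (0.74).

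**Figure D5:**
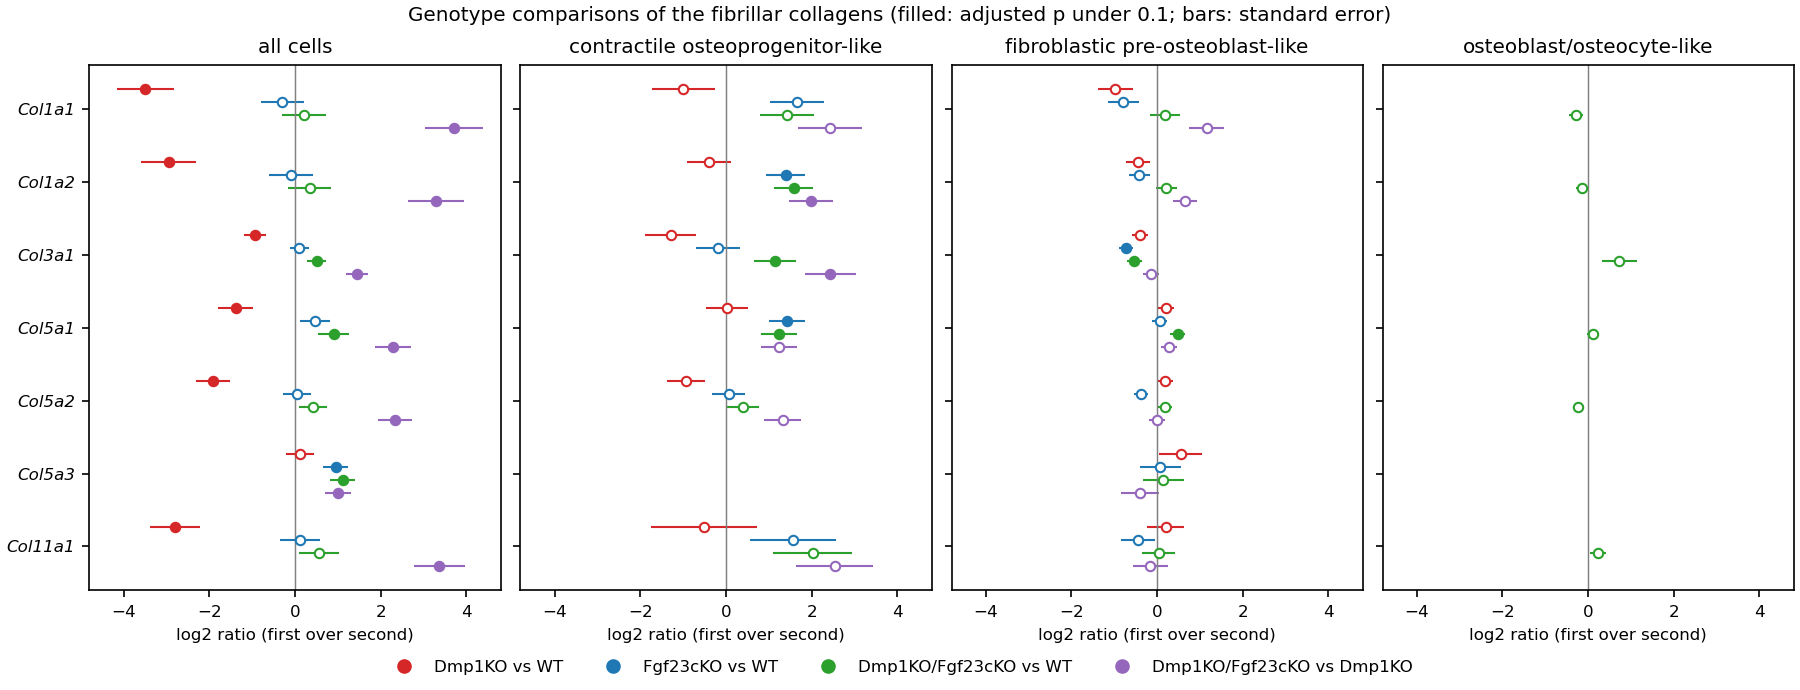
Log2 ratios of the 7 members are plotted with their standard errors for the 4 comparisons in all cells and in 3 classes, with filled points for an adjusted p under 0.1 and open points otherwise. In all cells 6 members lie below 0 in Dmp1KO compared with WT and 7 above 0 in Dmp1KO/Fgf23cKO compared with Dmp1KO, and within classes most points are open.

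The effect of Fgf23cKO in Dmp1KO cultures was set against its effect in cultures with intact Dmp1, with a test chosen after the data had been examined. Over all cells the difference of the log2 ratios was 4.01 (SE 0.81, adjusted p = 0.00236) for Col1a1, 3.39 for Col1a2, 3.25 for Col11a1, 2.28 for Col5a2, 1.82 for Col5a1 (adjusted p = 0.0175) and 1.35 for Col3a1. These 6 were called, where 25.6% of all genes were called in this direction. Col5a3 differed by 0.04 (SE 0.42, adjusted p = 0.946), with log2 ratios of 0.99 with Dmp1KO and 0.95 without. In the tagged cultures Col5a3 was thus the member whose rise with Fgf23cKO over all cells was measured at a like size on both backgrounds. Within pre-osteoblast-like cells, which held most Col5a3 UMIs, no such rise was measured. There the log2 ratios were -0.40 with Dmp1KO and 0.08 without, and neither was called (edgeR, adjusted p = 0.740 and 0.962). With untagged samples included the sizes were not alike, at 0.02 with Dmp1KO and 1.00 without. The untagged Dmp1KO sample held 11.4 CPM of Col5a3, above both tagged Dmp1KO cultures.

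Within osteoprogenitor-like cells, Col1a2 and Col3a1 were called higher in Dmp1KO/Fgf23cKO than in both WT and Dmp1KO, and Col5a1 than in WT. The size of the change moved with the scaling and with the thinning of cells to equal depth. Col3a1 was at 259, 238 and 576 CPM in WT, 397, 30.1 and 296 in Fgf23cKO, 119 and 116 in Dmp1KO and 397, 479 and 791 in Dmp1KO/Fgf23cKO. The Dmp1KO cultures lay below WT and Dmp1KO/Fgf23cKO without overlap, and Fgf23cKO spread on both sides of them. Col1a2 was at 1273, 253 and 763 in WT, 2506, 783 and 1603 in Fgf23cKO, 356 and 554 in Dmp1KO and 1579.7, 1176 and 2002 in Dmp1KO/Fgf23cKO. Only Dmp1KO and Dmp1KO/Fgf23cKO, and Dmp1KO and Fgf23cKO, did not overlap. The other members tested ranged more widely within a genotype, for example Col1a1 from 158 to 1366 in WT and from 271 to 2948 in Fgf23cKO. Col5a3 was too low to be tested, at 0 to 25.9 CPM.

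In Dmp1KO/Fgf23cKO compared with Dmp1KO, Col3a1 rose by a log2 ratio of 2.44 (SE 0.59, adjusted p = 0.0355) and Col1a2 by 1.98 (SE 0.52, adjusted p = 0.0554), 2 of the 6 members tested, where 3.1% of 4845 genes were called higher. Col1a1 (2.42), Col11a1 (2.53), Col5a2 (1.33) and Col5a1 (1.23) were not called. All 6 lay above Dmp1KO without overlap, which is a description, since the share of all genes apart in this way is not given. The median log2 ratio of the 6 was 2.20 beside -0.09 for all genes. In Dmp1KO/Fgf23cKO compared with WT, Col1a2 (1.58, SE 0.45, adjusted p = 0.0202), Col5a1 (1.24, SE 0.42, adjusted p = 0.0427) and Col3a1 (1.15, SE 0.50, adjusted p = 0.0996) were called higher, beside 16.7% of all genes. In Fgf23cKO compared with WT, Col5a1 (1.42, SE 0.42, adjusted p = 0.0406) and Col1a2 (1.39, SE 0.45, adjusted p = 0.0576) were called higher, beside 9.82% of all genes. In Dmp1KO compared with WT none of the 6 members passed in edgeR or DESeq2, and 1, Col3a1, had an unadjusted p under 0.05 (log2 ratio -1.29, SE 0.59, adjusted p = 0.207), while 12.9% of all genes were called. The difference of the Fgf23cKO effects was called for Col3a1 only, at 2.62 (adjusted p = 0.092), where 1.18% of genes were called in this direction.

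These calls depend on the scaling and on single cultures. With library sizes alone, the median of all genes in osteoprogenitor-like cells shifted by -0.62 in Dmp1KO/Fgf23cKO compared with WT, -0.40 in Dmp1KO compared with WT, -0.38 in Fgf23cKO compared with WT and -0.22 in Dmp1KO/Fgf23cKO compared with Dmp1KO. The calls then changed from 811 higher and 830 lower to 359 and 1737, from 414 and 212 to 206 and 439, from 476 and 358 to 254 and 766, and from 150 and 58 to 77 and 70. Under that scaling no member was called against WT in Dmp1KO/Fgf23cKO or Fgf23cKO, the ratio of Col5a2 turned from 0.39 to -0.24 and from 0.06 to -0.32, Col5a2 was called lower in Dmp1KO, and Col3a1 alone stayed called in Dmp1KO/Fgf23cKO compared with Dmp1KO (2.21). Without either Dmp1KO culture no member was called in that comparison, although the log2 ratios of Col3a1 remained 2.41 and 2.55. The calls of Col1a2 and Col5a1 in Fgf23cKO were lost without Fgf23cKO culture 1 (0.97 and 1.18) or WT culture 2 (0.95 and 1.06), the Col1a2 call also without WT culture 3 (1.32). In Dmp1KO/Fgf23cKO compared with WT, Col5a1 was lost without WT culture 2 (0.86), and Col3a1 without any of the WT cultures 1 (0.88) and 2 (0.86), Fgf23cKO culture 3 (1.13) or the Dmp1KO/Fgf23cKO cultures (0.79 to 1.32).

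Markers of other classes moved with the genotypes in the osteoprogenitor-like cells. Of 11 osteoblast/osteocyte markers, 7 to 9 were detected per genotype, Mepe and Sost were at 0 in all, and their summed level was 745 to 2929 CPM in WT, 1307 to 2849 in Fgf23cKO, 939 to 1249 in Dmp1KO and 2958 to 7130.1 in Dmp1KO/Fgf23cKO. The 10 pre-osteoblast markers summed to 2246 to 2779 in WT and to 271 to 969 in the other genotypes. Macrophage markers, all 13 detected, summed to 2298 to 17745, and the adipocyte list ranged from 349 to 11757 in WT alone. The part of these cells or of their free RNA in the collagen differences was not tested.

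In pre-osteoblast-like cells the genotypes differed less, and Col3a1 was lower in both groups with Fgf23cKO than in WT. Col3a1 was at 1890.5, 2389 and 2321 CPM in WT, 971, 1385 and 1588 in Fgf23cKO, 1692 and 1659 in Dmp1KO and 1513, 1659 and 1496 in Dmp1KO/Fgf23cKO. All cultures of the other genotypes lay below WT. Relative to WT, Col3a1 differed on the log2 scale by -0.73 in Fgf23cKO (SE 0.17, adjusted p = 0.0266) and -0.53 in Dmp1KO/Fgf23cKO (SE 0.17, adjusted p = 0.0697), and -0.39 in Dmp1KO, which was not called (SE 0.19, adjusted p = 0.243). Of 11665 genes tested, 5.71% were called lower in Fgf23cKO and 8.12% in Dmp1KO/Fgf23cKO. Col5a1 rose in Dmp1KO/Fgf23cKO, to 764, 752 and 801 from 408, 581 and 630.1 in WT (0.48, SE 0.17, adjusted p = 0.0979), beside 7.7% of genes called higher.

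In Dmp1KO pre-osteoblast-like cells the type I chains did not pass the test against WT. Col1a1 was at 3819.9, 7435 and 10545 in WT, 4102 and 3331 in Dmp1KO, 6446, 2504 and 3704 in Fgf23cKO and 9426, 7579 and 8463 in Dmp1KO/Fgf23cKO. The Dmp1KO cultures overlapped WT at its lowest culture only, and lay below Dmp1KO/Fgf23cKO. The log2 ratio was -0.98 (SE 0.41, adjusted p = 0.174) for Dmp1KO compared with WT and 1.16 (SE 0.41, adjusted p = 0.236) for Dmp1KO/Fgf23cKO compared with Dmp1KO. No member was called in these 2 comparisons in edgeR or DESeq2, with 1 and 2 members at an unadjusted p under 0.05 and 12.1 and 0.952% of all genes called. The difference of the Fgf23cKO effects was called for Col1a1, at 1.95 (adjusted p = 0.0751), where 2.91% of genes were called in this direction. That call was lost when any of 9 of the 11 cultures was left out, with values from 1.54 to 2.08.

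The calls in pre-osteoblast-like cells were close to the threshold. Without WT culture 2 neither Col3a1 (-0.48) nor Col5a1 (0.52) was called in Dmp1KO/Fgf23cKO compared with WT, and the same held without Dmp1KO/Fgf23cKO culture 1 (-0.52 and 0.48), culture 2 (-0.59 and 0.49) or culture 3 (-0.50 and 0.46) or without Dmp1KO culture 2 (-0.52 and 0.49). Col3a1 alone was lost without WT culture 3 (-0.47), and Col5a1 alone without WT culture 1 (0.30), Dmp1KO culture 3 (0.48) or Fgf23cKO culture 3 (0.48). Osteoblast/osteocyte markers in this class summed to 3168 to 8912 CPM in WT, 2466 to 6007 in Fgf23cKO, 2621 to 4190.3 in Dmp1KO and 4145 to 9522 in Dmp1KO/Fgf23cKO, with Sost at 0 throughout, and their part in the result was not tested.

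In osteoblast/osteocyte-like cells only Dmp1KO/Fgf23cKO and WT had enough cultures for a test, and no member was called. Col1a1 was at 41186, 56331 and 46845 CPM in WT and 45066, 42703 and 42144 in Dmp1KO/Fgf23cKO (log2 ratio -0.28, SE 0.16, adjusted p = 0.317). Col3a1 was at 280.4, 181 and 103 against 236, 205 and 550.3 (0.73, SE 0.41, adjusted p = 0.313), and Col11a1 at 1432, 2248 and 2000.4 against 2681, 2499 and 2098 (0.23, SE 0.19, adjusted p = 0.517). The genotypes overlapped for every member tested but Col5a1, which lay at 940.0, 919 and 838 in Dmp1KO/Fgf23cKO above 688, 771 and 830.2 in WT (0.12, SE 0.14, adjusted p = 0.674). Of the 6 members tested, 0 had an unadjusted p under 0.05 in edgeR and 0 were called by DESeq2, while 13.6% of 8583 genes were called. The calls of all genes changed from 561 higher and 608 lower to 816 and 456 with library sizes alone, a median shift of 0.11. The smallest of these sums held 10 cells, and the single Fgf23cKO culture with a sum stood at 43071 for Col1a1 and 1516 for Col5a2, below all 6 other cultures for Col5a2. The Dmp1KO cultures held 2 and 8 cells of this class, so no level is given for them.

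Ratios between chains were compared between genotypes with a two-sided exact permutation test, which cannot give a p below 0.1 for 3 against 3 cultures or 0.2 for 3 against 2. None of the 75 comparisons could therefore be called, and the smallest adjusted p was 0.417. In whole cultures, Col3a1 per Col1a1 averaged 0.0462 (0.0342 to 0.0555) in WT and 0.268 (0.237 to 0.303) in Dmp1KO, 5.80 times as high (exact p = 0.2), and 0.0560 in Dmp1KO/Fgf23cKO. Col11a1 per Col5a1 was 1.55 (1.29 to 1.70) in WT and 0.575 (0.502 to 0.659) in Dmp1KO, and Col1a1 per Col1a2 fell from 1.16 (1.10 to 1.23) to 0.776 (0.762 to 0.790). These are the ratios by which the classes differed, and the classes' shares of UMIs moved with them.

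Some ratios also differed within classes without overlap. This was so in 8 of 24 comparisons in pre-osteoblast-like, 7 of 21 in osteoprogenitor-like and 2 of 6 in osteoblast/osteocyte-like cells. Full separation has an exact p of 0.1 for 3 against 3 cultures and 0.2 for 3 against 2, so some is expected by chance. In pre-osteoblast-like cells Col1a1 per Col1a2 was 0.671 and 0.696 in Dmp1KO, below 0.752 to 1.11 in WT and 0.893 to 1.15 in Dmp1KO/Fgf23cKO, while Fgf23cKO, at 0.605 to 0.891, lay on both sides of Dmp1KO. Col3a1 per Col1a1 was 0.160 to 0.219 in Dmp1KO/Fgf23cKO and 0.220 to 0.495 in WT, apart by the narrowest margin, and 0.412 to 0.498 in Dmp1KO. In osteoprogenitor-like cells the same ratio was 0.111 to 0.185 in Fgf23cKO and 0.189 to 1.62 in WT, and the minor chains per type I and III chains were 0.126 to 0.142 in Dmp1KO/Fgf23cKO, below 0.157 to 0.290 in WT and 0.212 to 0.291 in Dmp1KO. In pre-osteoblast-like cells the minor chains per type I and III chains were 0.193 and 0.204 in Dmp1KO, above 0.0908 to 0.133 in WT. In osteoblast/osteocyte-like cells Col5a1 per Col5a2 was 0.400 to 0.441 in Dmp1KO/Fgf23cKO, above 0.280 to 0.367 in WT (exact p = 0.1, the smallest possible). The other ratio apart in this class was that of the minor chains to type I and III, at 0.0602 to 0.0727 in Dmp1KO/Fgf23cKO and 0.0523 to 0.0596 in WT. Type I chain ratios in this class overlapped, at 0.997 to 1.23 and 1.15 to 1.29.

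The other fibrillar collagens were Col2a1 (type II, the cartilage collagen), Col11a2 (type XI), Col24a1 and Col27a1. Over all cells Col11a2 took the direction of Col11a1, from 26.2, 12.2 and 28.6 CPM in WT to 0.359 and 0.652 in Dmp1KO (log2 ratio -5.16, SE 0.93, adjusted p = 0.000834) and 22.3, 52.7 and 19.983 in Dmp1KO/Fgf23cKO (5.62 to Dmp1KO, SE 0.93). Col27a1 fell in Dmp1KO by 1.36 (SE 0.24) and rose in Dmp1KO/Fgf23cKO compared with Dmp1KO by 1.06 (SE 0.23). Col24a1 went the other way in Dmp1KO, at 23.2 and 18.7 against 6.83, 5.07 and 12.5 in WT (1.66, SE 0.75, adjusted p = 0.0808). Of its 1681 and 1178 UMIs in the Dmp1KO cultures, 1310 and 907 were in macrophage-like cells, 327 and 157 in cycling-like cells and 39 and 73 in pre-osteoblast-like cells. Col2a1 was not called in any comparison.

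Genes that act with fibrillar collagens were counted over all cells in the same comparisons, beside 32% of all genes called lower in Dmp1KO compared with WT and 27.2% called higher in Dmp1KO/Fgf23cKO compared with Dmp1KO. Of 15 fibril-associated genes, 8 fell and 0 rose in Dmp1KO compared with WT, and 14 rose and 0 fell in Dmp1KO/Fgf23cKO compared with Dmp1KO. Bgn, a small proteoglycan that binds fibrils, changed by -1.65 (SE 0.48) and 2.17 (SE 0.48), and Sparc, a collagen-binding matrix protein of bone, by -2.16 (SE 0.60) and 2.83 (SE 0.62). Of 27 genes for procollagen folding, secretion and processing, 18 fell and 2 rose in the first comparison, and 22 rose and 1 fell in the second. The 2 that rose were Ppib, an isomerase that also fell in the second comparison (0.72 and -0.30), and Colgalt1, a collagen sugar transferase, whose ratio of 0.25 was smaller than the shift between scalings. Serpinh1, the collagen chaperone of the endoplasmic reticulum, changed by -2.23 (SE 0.57) and 2.86 (SE 0.59), Fkbp10, a collagen-folding isomerase, by -2.07 (SE 0.51) and 2.86 (SE 0.52), and Lox, which cross-links fibrils, by -1.92 (SE 0.53) and 2.57 (SE 0.54). The medians of the 2 lists were -0.96 and -0.98 in the first comparison, beside -0.03 for all genes, and 1.94 and 1.63 in the second, beside -0.05. In Fgf23cKO compared with WT 4 fibril-associated genes rose and 0 fell, among them Fn1 (1.17, SE 0.33) and Col6a3 (1.22, SE 0.30), and of the processing genes 5 rose and 3 fell. These counts of 4 of 15 and 5 of 27 lie near the 21.7% of all genes called higher. In Dmp1KO/Fgf23cKO compared with WT 8 rose and 0 fell, and 10 rose and 2 fell, beside 24.5% of all genes called higher, with Loxl2, a relative of Lox, at 1.28 (SE 0.22).

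The same lists were counted within classes. In osteoprogenitor-like cells of Dmp1KO/Fgf23cKO compared with Dmp1KO, where 3.1% of all genes were called higher, 5 of 12 fibril-associated genes tested rose, led by Fmod, which regulates fibril assembly (4.48, SE 0.55, adjusted p = 0.000503), and 4 of 20 processing genes rose, among them Lox (1.59, SE 0.31). Compared with WT, 7 of 12 and 6 of 20 rose, beside 16.7% of all genes, among them Sparc (2.12, SE 0.22) and Pcolce, which enhances procollagen trimming (1.67, SE 0.38). In pre-osteoblast-like cells of Dmp1KO/Fgf23cKO compared with WT, 3 of 15 fibril-associated genes and 6 of 25 processing genes rose and 0 fell, beside 7.7% of all genes called higher, with Serpinh1 at 0.41 (SE 0.12). In osteoblast/osteocyte-like cells of Dmp1KO/Fgf23cKO compared with WT no member was called, while 13.6% of all genes were called in either direction. Of 14 fibril-associated genes tested 4 rose and 3 fell, with a median of 0.02, and of 25 processing genes 5 rose and 1 fell. Col6a1 (0.97, SE 0.27), Col6a2 (1.10, SE 0.28) and Col6a3 (1.90, SE 0.46), the chains of the microfibrillar type VI collagen, were among those that rose. Thbs1 fell by 0.96 (SE 0.19), and Lum, a proteoglycan of fibrils, went from a mean of 80.5 ± 75.4 to 0.987 ± 1.19 CPM (SD, n = 3). In osteoprogenitor-like cells the shift between scalings of -0.62 compared with WT was smaller than the ratios of Sparc and Pcolce, but not than every call counted here.

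The genes with the most similar pattern were sought over 32 sums of UMIs per culture and class, among 8744 genes with a mean of at least 10 CPM, by Pearson's r of log2(CPM + 1). The points share cultures and differ in depth. Col1a1 and Col1a2 were each other's nearest gene (r = 0.988), followed for Col1a1 by Kdelr2 (0.968) and Serpinh1 (0.955) and for Col1a2 by Serpinh1 (0.970). Col11a1 was nearest to Kcnma1 (0.926) and Col1a2 (0.923). Col5a1 was nearest to Myo1d (0.933) and Col5a2 to Bmp1 (0.953), a procollagen protease. Col3a1 was nearest to Inhbb (0.907) and Plxdc2 (0.907), and Col5a3 to Pamr1 (0.904) and Tll1 (0.844). Among the members, Col3a1 and Col5a3 had r = 0.704, whereas r with Col1a1 was 0.286 for Col3a1 and 0.0230 for Col5a3. Col5a1, Col5a2 and Col11a1 had r of 0.919, 0.804 and 0.880 with Col1a1.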

How the data were processed

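Single-cell RNA-Seq (10x, 3′ end) was measured in tagged bone marrow stromal cell cultures of 4 genotypes. Per the file headers, the authors deposited filtered matrices of UMI counts per gene and cell, made with Cell Ranger 7.0.1 on mm10; Cell Ranger and Seurat are named in the submitters' processing notes, and the sources used here do not say whether intronic reads were counted. Multiplets had been removed by tag, those within a culture remain, and no doublet caller was run. The 12 rows of sample tags were left out.

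Genotypes came from the labels, samples 1 to 3 of a genotype were read as its tagged cultures and sample 4 as the untagged cells of the same pool, which entered the clustering, the thinned shares and the per-cell medians, but no comparison between genotypes. Cells were normalized with sctransform 0.4.2 and clustered with Seurat 5.3.0 (3000 variable genes, 30 components, resolution 0.8, 20 clusters), and clusters were named from marker lists. Counts were summed per culture and class (at least 10 cells) and tested with edgeR 4.0.16 (quasi-likelihood, TMM factors, filterByExpr, all genotypes in one fit, R 4.3.3); edgeR's tests and the ratios were tried on simulated data first. Ratios needed at least 10 UMIs of the chains together in a culture and used exact permutation tests (scipy 1.17.1, two-sided). Intervals are exact (Clopper-Pearson, 95%), and a gene at 0 UMIs could have been at up to 3 counts. Tagged cultures held 9518928 to 72482185 UMIs. The depth of a class sets the precision: osteoprogenitor-like sums rested on far fewer UMIs than the others. The study gives 3 mice and 3 individual cultures per genotype, and p-values measure the spread between these cultures.

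The alternatives were DESeq2 1.42.0, RLE factors, no filter on low counts, a threshold of 0.05, untagged samples included, cells thinned to 1300 UMIs, cells filtered at 500 genes and 20% mitochondrial UMIs, sums of at least 20 cells, means of per-cell shares, background subtraction, classes clustered without fibrillar collagens, each culture left out and a replicate block; library sizes without factors and the test of the difference of effects were added after the data had been examined. Replicate numbers did not pair the samples (correlations of deviations from -0.273 to 0.274). The members, gene lists and comparisons were chosen with earlier results of these data known. Named genes were the 7 members in every comparison, and genes of the lists that passed the threshold, by size of change; the genes of most similar pattern were the first 5 by Pearson's r. Lists held 4 other fibrillar collagens, 15 fibril-associated and 27 processing genes.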

Additional observations from a re-analysis of the deposited data

Results flagged for a closer look

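Over all cells, the effect of Fgf23cKO differed between cultures with and without Dmp1 for 6 members, by a test of the difference itself. The difference of log2 ratios was 4.01 for Col1a1, 3.39 for Col1a2, 3.25 for Col11a1, 2.28 for Col5a2, 1.82 for Col5a1 and 1.35 for Col3a1, beside 25.6% of all genes called in this direction. Within classes it was called for Col3a1 in osteoprogenitor-like cells, at 2.62 (beside 1.18% of genes), and for Col1a1 in pre-osteoblast-like cells, at 1.95 (beside 2.91%). The calls were lost when any of 8 and 9 of the 11 cultures was left out, although the differences remained 2.08 to 2.82 and 1.54 to 2.08.

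Of 77 groups of 4 samples examined, 6 had a sample far from the rest, where chance gives about 1 in 20. The untagged sample of Dmp1KO/Fgf23cKO was the one apart in 3 of them. Its Col3a1 was at 539.35 CPM in all cells, against 165.53 to 221.79 in the tagged cultures, and at 2673.4 in pre-osteoblast-like cells, against 1495.7 to 1659.0. Its Col5a1 in osteoprogenitor-like cells was at 76.321, against 146.03 to 148.71. In osteoprogenitor-like cells, Col11a1 of Fgf23cKO culture 2 was at 100.33 against 11.851 to 21.15 in the other samples, and Col5a3 of WT culture 1 was at 10.349, a single UMI, against 0 in the others. Col5a2 in pre-osteoblast-like cells of Dmp1KO/Fgf23cKO culture 1 was at 1221.3, against 1145.0 to 1147.1.

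Col24a1, a fibrillar collagen outside the 7 members, was found in macrophage-like and cycling-like cells of Dmp1KO. In macrophage-like cells it was at 23.903 and 18.633 CPM in the tagged cultures and at 19.526 in the untagged sample, from 1310, 907 and 170 UMIs. In the macrophage-like cells of every sample of the other genotypes it was at 0 to 0.85382. In the cycling-like cells, named for Top2a and Ube2c among their leading genes, it was at 21.878 and 15.251 CPM in the tagged Dmp1KO cultures and at 20.382 in the untagged sample, from 327, 157 and 50 UMIs, against 0 to 0.57519 in the samples of the other genotypes. Relative to the whole pool, the macrophage-like level stood at 102% in Dmp1KO and at 2.82 to 5.33% elsewhere, while the 7 members stood at 3.54 to 6.22% in Dmp1KO.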

How the results depend on the processing

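Over all cells the number of members called in Dmp1KO compared with WT (6) and in Dmp1KO/Fgf23cKO compared with Dmp1KO (7) stayed within 1.5 times under every alternative run. These counts ranged from 4 to 6 and from 6 to 7 with 1 culture left out. The genes called did not stay the same. With untagged samples, Col3a1 was lost (-0.51) and Col5a3 became called higher (1.18) in Dmp1KO compared with WT. Col5a3 was also lost in Dmp1KO/Fgf23cKO compared with Dmp1KO (0.02). The number of calls within classes was less stable. Osteoprogenitor-like cells gave, for Dmp1KO/Fgf23cKO compared with Dmp1KO, Dmp1KO/Fgf23cKO compared with WT, Fgf23cKO compared with WT and Dmp1KO compared with WT, 2, 3, 2 and 0 calls. For the first, there were 0 with thinned cells, 1 at a threshold of 0.05 or with library sizes only, 4 with untagged samples, 5 with sums of at least 20 cells, and 6 without a filter on low counts or with classes clustered without fibrillar collagens. For the second, there were 0 with thinned cells or library sizes only and 5 without a filter, with sums of at least 20 cells or with classes clustered without fibrillar collagens. For the third, there were 0 with thinned cells or library sizes only and 1 at 0.05 or with untagged samples. For the last, there was 1 with library sizes only, without a filter, with sums of at least 20 cells or with untagged samples. In pre-osteoblast-like cells the 2 calls of Dmp1KO/Fgf23cKO compared with WT became 0 at 0.05 and 1 with RLE factors, thinned cells, sums of at least 20 cells or untagged samples. Calls rose to 2 without a filter in Fgf23cKO compared with WT, in Dmp1KO compared with WT and in Dmp1KO/Fgf23cKO compared with Dmp1KO, and to 1 with untagged samples in the last pair. In osteoblast/osteocyte-like cells there was 1 without a filter or with untagged samples. Over all cells, Dmp1KO/Fgf23cKO compared with WT had 1 at 0.05 or with untagged samples, and Fgf23cKO compared with WT had 0 with untagged samples. With 1 culture left out, calls ranged from 1 to 3 and 0 to 1 in these whole-culture comparisons, from 0 to 6, 1 to 5, 0 to 3 and 0 to 1 in osteoprogenitor-like cells in the order given, and in pre-osteoblast-like cells from 0 to 2 (Dmp1KO/Fgf23cKO) and 1 to 2 (Fgf23cKO) and 0 to 1 (Dmp1KO), each compared with WT. The cause was not tested, except that fewer cultures, cells or UMIs entered some of these fits.

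A few differences that had not been called turned in sign. Col5a1 in osteoblast/osteocyte-like cells of Dmp1KO/Fgf23cKO compared with WT was at -0.10 with thinned cells and -0.023 with untagged samples, and Col5a3 over all cells of Dmp1KO compared with WT at -0.18 with library sizes only. With 1 culture left out, log2 ratios of Col1a1 over all cells ranged from -0.13 to 0.62 in Dmp1KO/Fgf23cKO and from -0.91 to 0.11 in Fgf23cKO compared with WT, those of Col1a1 in osteoprogenitor-like cells of Dmp1KO from -1.46 to 0.22 (positive without WT culture 1), and those of Col5a3 over all cells of Dmp1KO from -0.11 to 0.39. The mean of per-cell shares moved several log2 ratios: Col11a1 per Col5a1 in WT was -3.21 in osteoprogenitor-like and 1.04 in osteoblast/osteocyte-like cells, where Col1a1 per Col1a2 was 0.49 and Col5a1 per Col5a2 -1.33, the last differing by 0.038 in Dmp1KO/Fgf23cKO. Col1a1 per Col1a2 over all cells differed by -0.66 in Dmp1KO compared with WT, and the minor chains per type I and III chains by -0.53 in pre-osteoblast-like cells of Dmp1KO/Fgf23cKO compared with Dmp1KO. With thinned cells the osteoblast/osteocyte-like level of WT minus the pre-osteoblast-like level was -4.55 for Col3a1 and 0.97 for Col5a1 (log2), and with classes clustered without fibrillar collagens Col3a1 per Col1a1 of pre-osteoblast-like cells differed by -1.30 in Dmp1KO/Fgf23cKO compared with WT. Filtering cells and subtracting the background left all their values within the spread or on the same side. Sums of at least 20 cells left no pair to compare in osteoblast/osteocyte-like cells.

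The replicate numbers are only names, since samples of the same number did not deviate together. With the number as a replicate block, 1 member in place of 2 was called in pre-osteoblast-like cells of Dmp1KO/Fgf23cKO compared with WT. The call of Col5a1, at 0.49, was the one lost. Col1a1 became called in osteoprogenitor-like cells of Dmp1KO/Fgf23cKO compared with Dmp1KO (2.18), and its difference of effects in pre-osteoblast-like cells (1.92) was lost. Depth limits osteoprogenitor-like Col5a3 and Col11a1 most, which had 0 UMIs in some cultures, where up to 3 UMIs cannot be told from none.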

Other observations

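The unnamed cluster led by Tenm3 carried an uneven set of chains. Its Col11a1 was at 31.4, 54.9 and 22.3 CPM in the 3 WT cultures and at 415, 485 and 282 in the 3 Fgf23cKO cultures, of which those with at least 10 cells were WT cultures 2 and 3 and Fgf23cKO culture 3. The WT values rested on 3, 13 and 4 UMIs. Col5a2 in the same sums was at 1298, 1048 and 1821 in WT and 1829.5, 1864 and 1311 in Fgf23cKO, which overlapped. The 2 cells of this cluster in Dmp1KO/Fgf23cKO, in cultures 1 and 3, held 626 and 685 Col5a2 UMIs, or 7.4979 and 12.697% of all Col5a2 UMIs of their cultures. Whether these are single cells was not tested.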
